A study of Oryza sativa with 20 samples.

Results

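A set of 110 array probe sets, of 57194 that are not controls (0.192%), was lowest in rice pistils 5 to 7 h after pollination, the stage its submitters call zygote formation. Members were chosen from the measured values: after raising values under 0.128 to that floor and taking log2, the mean of the 5 to 7 h pistils had to lie 1.5 or more below the lowest of the other 6 group means, which is a drop of at least 2.83-fold. The low level at 5 to 7 h is therefore a description of what the rule picked, and no test of it is given. The annotation gave 1 gene for 86 of the members, naming 79 different genes, and no gene for the other 24. Of these genes, 16 carry a name other than a locus number. The suffix _x, carried by 15 members, and the suffix _s, carried by 14, mark probe sets that may cross-hybridise with other transcripts.

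The study measured Oryza sativa plants grown in paddy fields on 20 arrays. Unpollinated stigmas (3 arrays), unpollinated ovaries (3 arrays), stigmas 5 min after pollination (2 arrays) and ovaries 5 min after pollination (3 arrays) were separated tissues. Stigma and ovary were kept together at 15 to 25 min (pollen tube growth), at 40 to 50 min (fertilization) and at 5 to 7 h (zygote formation), with 3 arrays each. The labels give no cultivar, no time of day and no number of pistils per sample, and call the replicates biological. Values are relative intensities on a linear scale, set so that each array has 1 as its 75th percentile. The number of arrays limits the precision, and in these bulk tissues fewer cells of a type and less RNA per cell cannot be told apart.

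After pollen lands on a grass stigma it germinates within minutes, the tube grows through the style to the ovule, and the sperm cells fuse with the egg and the central cell. The plant circadian clock runs through these hours as well: the MYB factors CCA1 and LHY are most abundant around dawn and repress evening genes such as PRR1 (TOC1 in Arabidopsis), GI and PCL1 (LUX in Arabidopsis). Dehydrins, small heat shock proteins, aquaporins, expansins and lipid transfer proteins, several of which are among the members, act in water balance, protein protection and the growth of cell walls.

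Arrays of a group correlated with r between 0.937 and 0.988, and no 2 arrays were identical. The ratios of 3' to 5' control signal at 5 to 7 h lay within the range of the other arrays, at 2.97 to 4.58 for actin and 7.71 to 10.1 for gapdh. That range is wide because the tissues differ. Actin was at 6.27 to 12.9 in stigmas and 2.70 to 5.58 in ovaries, and gapdh at 8.58 to 22.9 and 4.66 to 10.7. The share of values at the floor was 4.34 to 13.4% in stigmas and 13.8 to 35.1% in ovaries. None of the carpel markers DL, MADS3 and MADS58 was at the floor on all arrays of a group. Unpollinated stigma replicate 2 and unpollinated ovary replicate 3 stood apart from their group mates for the members. Replicate 2 of the stigma was the lowest of its 3 arrays for 71.8% of the members, against 40.0% of all tested probe sets. Replicate 3 of the ovary was the lowest for 52.7%, against 26.3%. Arrays of other groups deviated as much on this measure. Replicate 2 of the 5 min stigmas was the lower of its 2 arrays for 86.4%, against 46.2%. Replicate 1 of the 5 min ovaries was lowest for 53.6%, against 24.7%, and replicate 2 at 40 to 50 min for 52.7%, against 26.2%. Below, the arrays that stood apart are the 2 unpollinated ones. Counts of members and calls of named genes that change without these 2 arrays are also given without them.

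The members were well expressed before the late stage and dim at it. Their median group mean was a relative intensity of 4.68 in unpollinated stigmas, 4.14 in unpollinated ovaries, 6.54 in stigmas at 5 min and 4.16 in ovaries at 5 min. In whole pistils it was 4.32 at 15 to 25 min, 3.0 at 40 to 50 min and 0.626 at 5 to 7 h. For the median probe set that passed the filter on dim values, the 3 arrays at 5 to 7 h gave 0.631 to 0.660. The other 17 arrays gave 0.626 to 0.724. Scaling each array to a common level limits how far this median can move, and the rule set the members' low late level. Nothing is therefore read from this contrast. The 3 arrays at 5 to 7 h all lay below the other 17 arrays for 100 of the 110 members. The same was true of 3.76% of all non-control probe sets, and since the rule used these values nothing is read from that difference. Without the 2 unpollinated arrays that stood apart, the count was 108 of 110, against 4.48% of all non-control probe sets. Against the 6 earlier whole-pistil arrays alone, 109 of the 110 members and 10.6% of all non-control probe sets had the 3 late arrays below the others.

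The gap between the 5 to 7 h mean and the lowest other group mean had a median of 1.85 on the log2 scale (3.62-fold) and reached 3.47. It was 2 or more for 42 members and 3 or more for 3 members. Just inside the threshold stood LOC4350617 at 1.5003 and an unannotated probe set at 1.51. Just outside stood LOC4347302 and LOC9267778 (NAAT1, a nicotianamine aminotransferase of iron acquisition), both at 1.49. For LOC4326913, which 2 member probe sets measure, and for LOC4339759, all 3 late arrays were at or under the floor, so their gaps are lower bounds. The same rule applied to the other groups picked 79 probe sets lowest in unpollinated stigmas, 172 in unpollinated ovaries and 14 in stigmas at 5 min. It picked 0 in ovaries at 5 min and 0 in each of the earlier pistil groups.

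**Figure D1:**
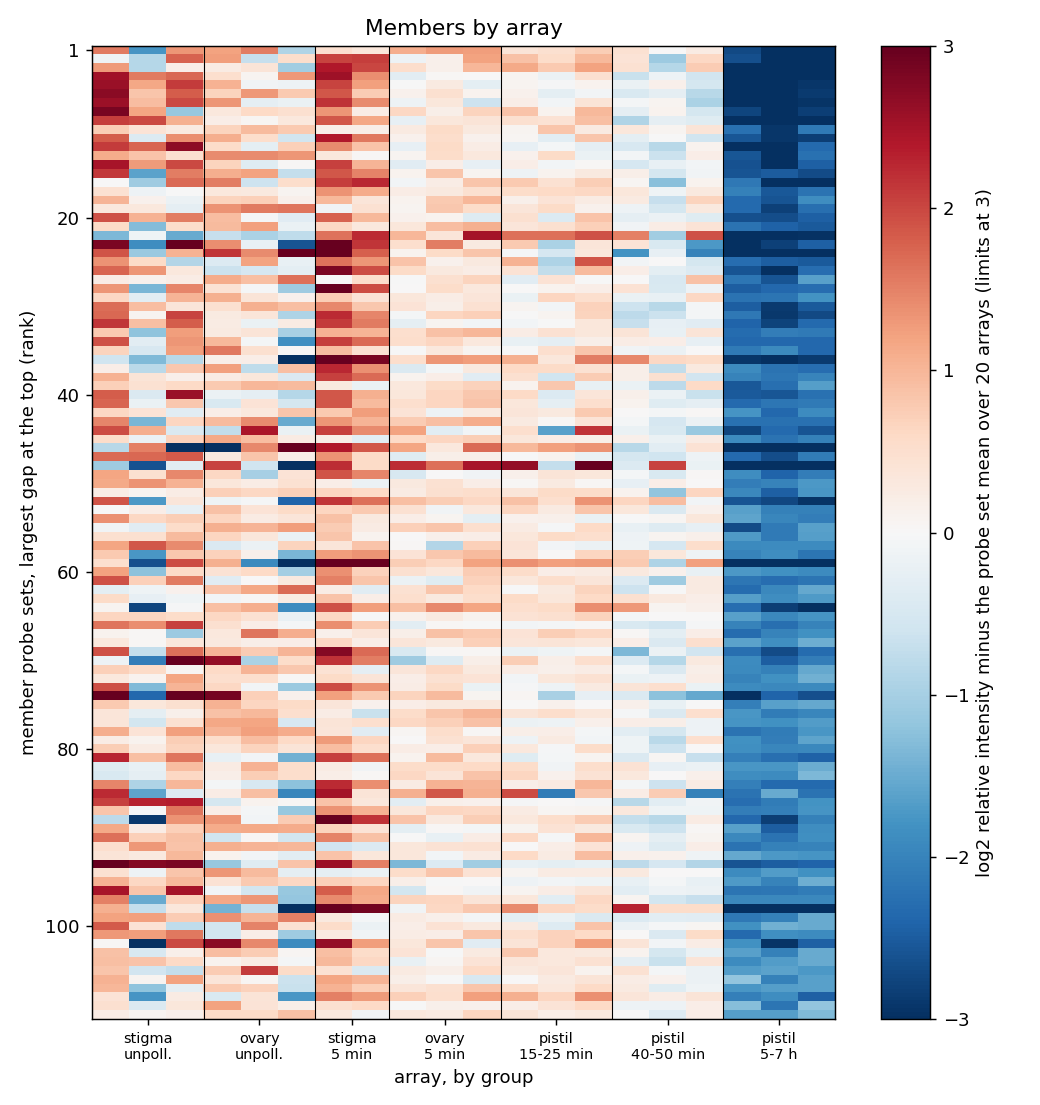
Each row is 1 of the 110 members, ordered by gap, and each column 1 of the 20 arrays in their 7 groups. Colour is the log2 relative intensity minus that probe set's mean over the 20 arrays. The 3 columns at 5 to 7 h are blue throughout because the rule chose rows that way, and unpollinated stigma replicate 2 and unpollinated ovary replicate 3 are bluer than their group mates.

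The largest gap belonged to the clock factor CCA1, also called LHY (LOC4344703). Its relative intensity was 1.31, 0.705 and 0.824 in the 3 pistils at 5 to 7 h. It was 11.8, 8.63 and 10.2 at 40 to 50 min and 11.3, 12.0 and 14.3 at 15 to 25 min. Ovaries at 5 min gave 18.2, 21.0 and 20.6, and stigmas at 5 min 12.0 and 10.8. The late pistils did not overlap with any other array, and their mean of 0.948 ± 0.322 (SD, n = 3) lay 11.1-fold under the lowest other group on the geometric scale. The unpollinated tissues were split: replicates 1 and 3 of the stigma gave 25.2 and 21.5 but replicate 2 gave 2.51, and replicates 1 and 2 of the ovary gave 19.8 and 25.0 but replicate 3 gave 4.60. A second, dim probe set of this gene had its group mean at the floor at 5 to 7 h and in at least 1 other group.

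Of the 7 clock genes tested, CCA1 was the only member, and the other 6 did not all move the same way at 5 to 7 h. PRR1, the rice relative of an Arabidopsis gene that CCA1 represses, was at 3.79, 4.51 and 4.81 at 5 to 7 h against 0.616 to 1.59 on the 11 arrays from 5 to 50 min. GI, which controls flowering time, was at 11.2, 12.7 and 13.7 against 4.33 to 9.40 on those arrays. These late levels of PRR1 and GI lay above every array from 5 to 50 min. PCL1, at 2.40 to 3.53, and PRR95, at 5.08 to 7.52, lay above the earlier pistils, at 0.366 to 0.660 and 3.26 to 4.86. Both overlapped with the stigmas at 5 min. The brighter probe set of PRR37 was at 4.19 to 4.94 late and overlapped with the earlier pistils, at 3.22 to 4.40. PRR73, another pseudo-response regulator, was instead lowest at 5 to 7 h, at 8.58, 8.53 and 8.56. The unpollinated arrays that were low in CCA1 were the high ones in the evening genes: GI was 29.4 in stigma replicate 2 against 4.83 and 10.3 in its group mates. In ovary replicate 3 GI was 20.3 against 7.19 and 5.03. The labels give no time of day, so hours since pollination and hour of the day cannot be told apart in these samples.

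**Figure D2:**
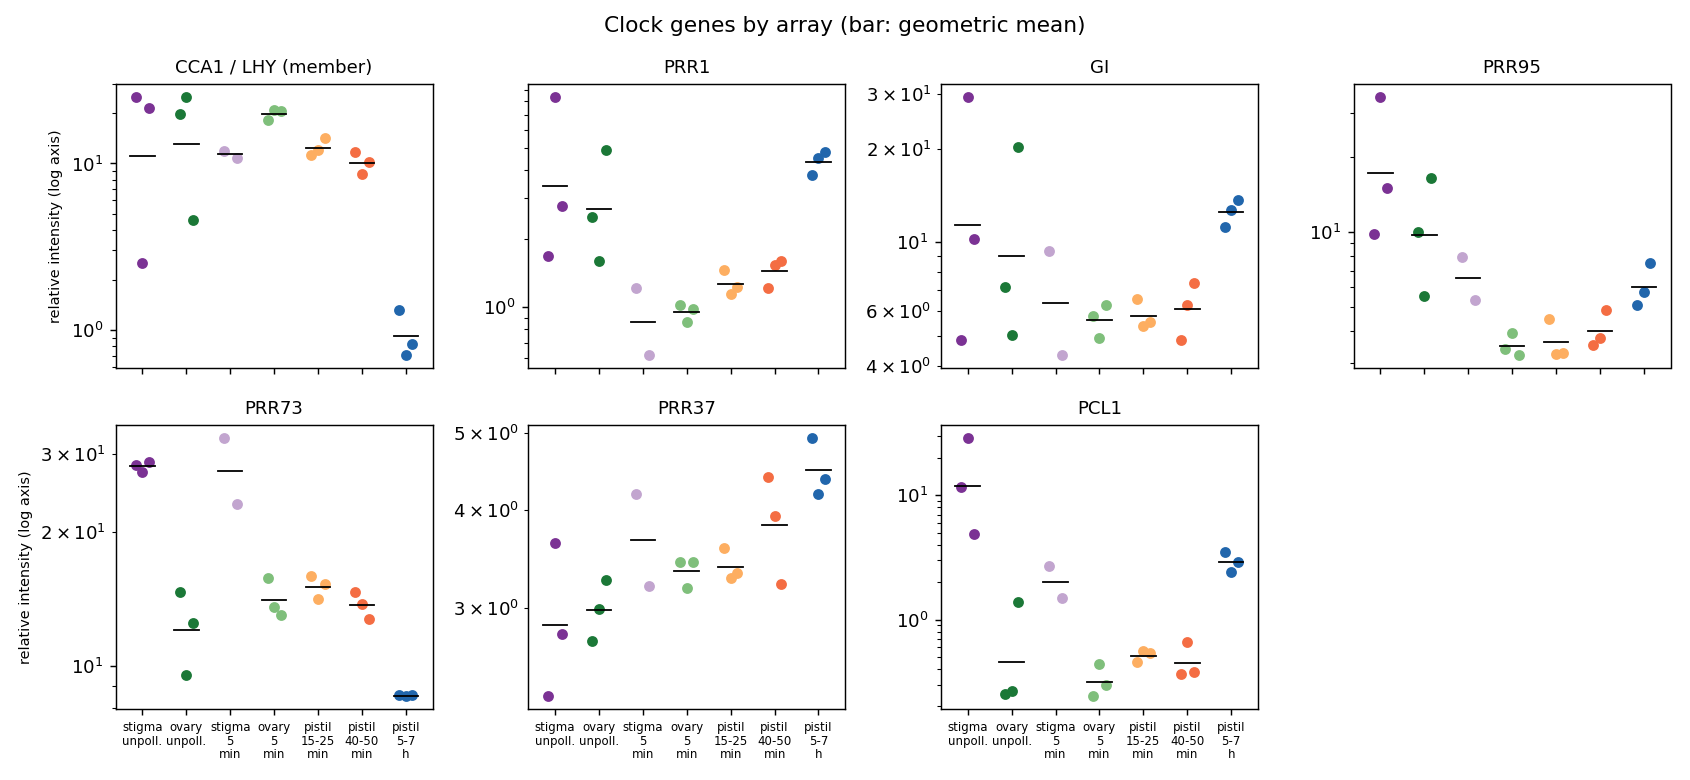
Relative intensity of 7 clock genes on a log axis, 1 point per array and a bar at the geometric mean of each group. CCA1/LHY is low in the 3 pistils at 5 to 7 h and in 2 of the 6 unpollinated arrays, where PRR1 and GI are high.

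The 5 min arrays were compared with the unpollinated arrays of the same tissue, groups that entered the rule only through the distance of each mean from the late one. At 5 min CCA1 did not pass the test in stigma (log2 change 0.04, SE 0.73, adjusted p = 0.984 by limma) or in ovary (0.60, SE 0.65, adjusted p = 0.711). The other 6 clock genes held 0 rises and 3 falls in stigma, namely PRR1 by 1.97 (adjusted p = 0.00822), PCL1 by 2.55 (adjusted p = 0.009) and PRR95 by 1.40 (adjusted p = 0.0241). In ovary only PRR95 passed, falling by 1.47 (adjusted p = 0.0297). These falls depended on the arrays used, as fits without each array, added after the data were seen, showed. Without unpollinated stigma replicate 2 the stigma changes were -1.32 for PRR1 (adjusted p = 0.0316), -1.90 for PCL1 (adjusted p = 0.0465) and -0.89 for PRR95 (adjusted p = 0.116). Without replicate 2 of the 5 min stigmas none of the 3 passed, at adjusted p of 0.154, 0.129 and 0.232 in the same order. The ovary change of PRR95 was -1.09 (adjusted p = 0.160) without unpollinated ovary replicate 3, and the call was also lost without unpollinated ovary replicate 1 or any 1 of the 5 min ovaries, at adjusted p of 0.0505 to 0.112. Without both arrays that stood apart, PRR1 and PCL1 in stigma and PRR95 in ovary passed (adjusted p = 0.00872, 0.00469 and 0.0400) and PRR95 in stigma did not (adjusted p = 0.0531). The CCA1 changes also depended on these arrays. In stigma the change was -1.03 (adjusted p = 0.202) without unpollinated stigma replicate 2. In ovary it was -0.16 (adjusted p = 0.960) without unpollinated ovary replicate 3.

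Among genes of hormone pathways, ACO1 (LOC4347225) had the largest gap. It encodes an ACC oxidase, which makes ethylene in the last step of its synthesis. Its relative intensity was 0.362, 0.310 and 0.347 at 5 to 7 h against 2.04, 2.66 and 1.71 at 40 to 50 min and 4.44, 2.64 and 4.85 at 15 to 25 min. The late pistils lay under all other arrays, while unpollinated stigmas ranged widely, from 1.12 to 17.7. The strigolactone receptor D14 (LOC4331983) was at 1.55, 1.29 and 1.55 late, and at 4.10 to 6.37 in the 9 arrays from ovaries at 5 min to pistils at 40 to 50 min. It was far brighter in the stigma, at 16.3 to 25.6 when unpollinated and 16.2 and 10.6 at 5 min. The 1 ethylene and AP2/ERF gene among the members is ACO1, of 20 genes in that list, of which 10 were lowest at 5 to 7 h by group mean, against 31.7% of all tested probe sets.

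WNK3 and CML16 are signalling genes. WNK3 (LOC4342585), a kinase of the "with no lysine" family, gave 0.349, 0.256 and 0.392 at 5 to 7 h and 1.51, 1.85 and 2.03 at 40 to 50 min. Like D14 it was brighter in stigma, at 5.22 to 11.9 unpollinated, than in ovary, at 1.66 to 3.42. The member probe set of WNK3 has the suffix _x, and the remaining probe set of this gene was near the floor, with a gap of 0.12. A pair of probe sets of the same cluster family, without an annotated gene, were also members, with gaps of 2.96 and 2.69. CML16 (LOC4325693), a calmodulin-like calcium sensor, was at 1.47, 1.29 and 1.24 late and at 4.94 to 7.15 at 40 to 50 min. At 15 to 25 min its 3 pistils spread from 3.74 to 26.4, all above the late ones.

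Dehydration and heat genes formed a further group. LIP9 (LOC4330265, also Dhn1), a dehydrin that protects cells when water is lost, was at 3.13, 2.80 and 3.19 at 5 to 7 h. It was at 14.1, 17.4 and 8.44 at 40 to 50 min, and its 5 min stigmas were the brightest arrays at 51.4 and 40.3. The late arrays did not overlap with any other. The remaining probe sets of LIP9, both dim, had gaps of -0.39 and 0.03. The small heat shock protein HSP17.9A (LOC4332357), a chaperone, was at 2.64, 2.58 and 3.23 late against 9.62 to 16.9 at 40 to 50 min. HSFA2A (LOC4334080), a heat stress transcription factor, was dim and scattered. Its late arrays at 0.155 to 0.254 overlapped with 1 array in each of 4 groups, both earlier pistil groups among them. The other probe sets of HSFA2A had gaps of only 0.32 and 0.20, at levels near the floor. Of 44 heat shock genes tested these are the 2 members, and 28 of the list were lowest at 5 to 7 h by group mean, as were 31.7% of all tested probe sets.

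The members include a pair of plasma membrane aquaporins, channels that pass water. PIP2-4 (LOC4343119) was at 0.636, 0.436 and 0.382 at 5 to 7 h and at 7.58, 3.24 and 3.43 at 40 to 50 min. Unpollinated stigma replicate 2, at 0.454, overlapped with the late arrays, while its group mates were at 3.25 and 2.99. PIP2-1 (LOC4343122) was at 1.04, 0.479 and 0.665 late against 3.46 to 4.75 at 40 to 50 min, and overlapped with the same stigma array (0.147) and with unpollinated ovary replicate 3 (0.992). Its probe sets disagreed: the brighter ones were not lowest at 5 to 7 h, with gaps of -0.56 and -0.60. A statement on PIP2-1 therefore holds for 1 probe set of 3. The 2 aquaporin genes are neighbours on the RefSeq map of ASM3414082v1, with 2 annotated genes between them, and no other pair of member genes lay within 10 genes of each other.

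An expansin and a pair of lipid transfer proteins are also members. EXPA1 (LOC4335222), an alpha-expansin that loosens cell walls, was at 1.21, 0.909 and 1.17 at 5 to 7 h. It was at 2.29, 5.16 and 3.90 at 40 to 50 min and at 39.5 and 18.8 in stigmas at 5 min, with no overlap between the late pistils and any other array. The lipid transfer protein LTP (LOC4351318, also PAPI) was at 6.07, 4.19 and 5.24 late and at 16.2 to 22.8 at 40 to 50 min. A second lipid transfer protein, LTP-2 (LOC4331362), was dimmer, at 0.160 to 0.239 late against 0.485 to 1.08 at 40 to 50 min. It overlapped with unpollinated stigma replicate 2 at 0.210. Of 67 wall genes tested EXPA1 was the 1 member. By group mean 11 of the 67 were lowest at 5 to 7 h, 4 had all late arrays below the other 17 and 8 had them above. Of all tested probe sets 31.7% were lowest late, and of all non-control probe sets 3.76% lay wholly below and 5.30% wholly above. Unlike the list counts, the shares of non-control probe sets include dim probe sets that were not tested. In the transport list, 4 of 111 genes were members, the 2 aquaporins and the 2 lipid transfer proteins, where 0.192% of all non-control probe sets are members. The list counts tested genes, while that share counts single probe sets and includes dim ones that were not tested. Nothing is therefore read from this difference.

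Chitinase, photosystem and zinc finger genes complete the named members. Cht7 (LOC4338720) encodes a chitinase, an enzyme that cuts fungal wall chitin. It was at 0.870, 0.898 and 0.790 late and at 4.17 to 10.02 at 40 to 50 min, but the unpollinated arrays ran from 0.415 to 143.6 and overlapped with the late ones. PSAG (LOC4337812), a subunit of photosystem I, was at 0.510, 0.598 and 0.583 late against 2.16 to 3.34 at 40 to 50 min, with no overlap. A dim second probe set of PSAG had a gap of 0.03. OsC3H35 (LOC4338037), a CCCH zinc finger protein, was measured by 2 member probe sets with gaps of 1.97 and 1.70. Its brighter probe set was at 1.61, 1.28 and 1.47 late and at 4.79 to 13.001 on the other 17 arrays.

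**Figure D3:**
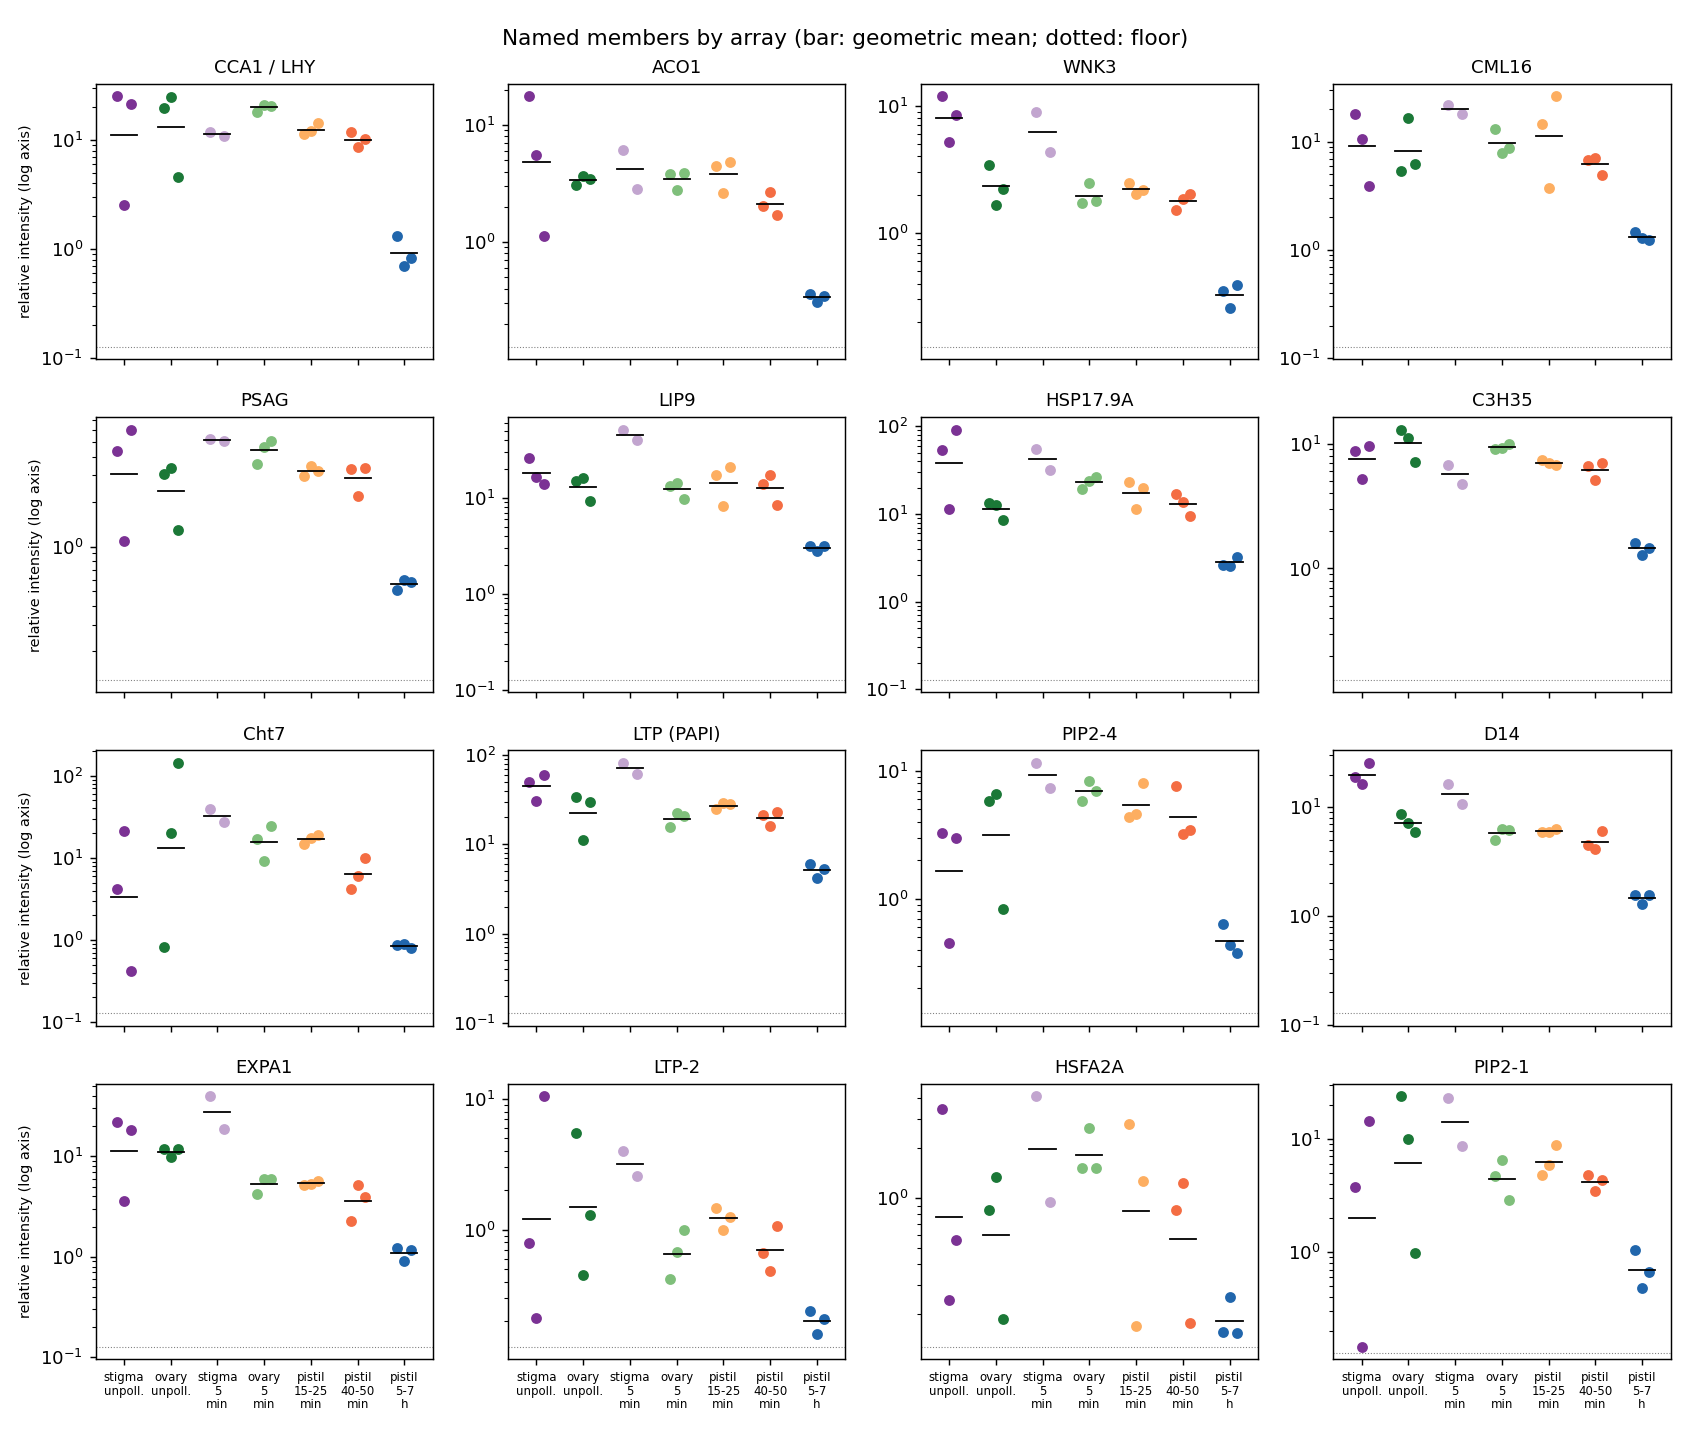
Relative intensity of the 16 named member genes on log axes, 1 point per array, with a bar at the geometric mean of each group and a dotted line at the floor of 0.128. The 3 pistils at 5 to 7 h are the lowest group in each panel, and for Cht7, PIP2-4, LTP-2, HSFA2A and PIP2-1 at least 1 other array overlaps with them.

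Genes without a name held several of the largest gaps, and these were singled out after their values were seen. LOC4350386 had gaps of 3.16 and 2.40 on its 2 probe sets. LOC4330048 followed with 3.12 and was at 0.410, 0.274 and 0.343 late against 17.0 and 13.1 in stigmas at 5 min. LOC4338477 was bright in every earlier group, at 24.9 to 45.8, and at 4.99, 3.13 and 5.41 late. More than 1 probe set measured 26 of the member genes. Of their 29 probe sets that were not members, 23 were also lowest at 5 to 7 h by group mean, as were 28.9% of all non-control probe sets. Many of the 29 were dim, and for 22 the lowest other group mean was under 0.5. LOC4333004 had 2 members and 3 further probe sets with gaps of 1.41, 1.41 and 1.49, just short of the threshold.

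The gene lists other than these held few or no members. Members are 0.192% of all non-control probe sets, so nothing is read from 0 or 1 member in lists of these sizes. Jasmonate (33 genes), auxin (56), gibberellin (13), cytokinin (29), redox (65), sugar and starch (38), cell cycle and histones (65), ribosome and translation (31) and WRKY, NAC and MYB (22) held 0 members each. The light and photosynthesis, abscisic acid, zinc finger, calcium and defence lists held 1 each. In the ribosome list 23 of 31 genes and in the cell cycle list 25 of 65 had all 3 late arrays above the other 17, against 5.30% of all non-control probe sets. In the abscisic acid and PP2C list, to which LIP9 belongs, 19 of 93 genes had all late arrays below the other 17, against 3.76% of all non-control probe sets. These lists count tested genes, while the shares include dim probe sets that were not tested. The counts and shares are therefore not like for like, and no excess is read from them.

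Some marker genes moved with the late group, and others in the same lists did not. The summed level of the stamen and lodicule markers MADS16, MADS2 and MADS4 was 16.4 to 19.6 at 5 to 7 h, 29.2 to 30.1 at 40 to 50 min and 34.2 to 37.7 at 15 to 25 min. In the separated tissues it was 26.7 to 58.3 in ovaries and 67.5 to 129.1 in stigmas. MADS16 and MADS2 were lower late than in the earlier pistils, while MADS4 overlapped, at 3.82 to 4.44 against 3.94 to 4.57. The green tissue sum of RBCS and CAB2R, 2 of 4 listed markers found, was 7.12 to 11.03 late against 14.1 to 23.3 in the earlier pistils. Of this pair CAB2R was lower late, at 5.77 to 9.44 against 12.9 to 22.0, while RBCS was at 1.35 to 1.59 against 1.15 to 1.42. The sum of the carpel markers was 45.1 to 47.5 late, below every other array, against 48.5 to 61.2 in the earlier pistils. MADS3 and MADS58 were lower late, while DL overlapped, at 6.61 to 7.71 against 4.94 to 7.92. The ovule and nucellus sum rose the other way, to 28.3 to 31.5 from 19.9 to 23.2. MADS21 and MADS29 of this list were higher late, while MADS13 overlapped, at 11.51 to 14.01 against 11.03 to 13.71. Pollen markers EXPB9 and EXPB10, 2 of 12 listed, summed to 10.2 to 13.4 late, within the 1.58 to 19.8 of the earlier pistils. The 5 anther wall and tapetum markers summed to 2.88 to 3.38 late against 2.07 to 2.37. GAMYB was at 2.05 to 2.77 late against 1.40 to 1.85, and the rest of this list was dim, at most 0.306 in any pistil. The early endosperm marker NF-YB1 was near the floor in all pistils, at 0.117 to 0.260. The 100 probe sets most biased to unpollinated stigma had a median log2 level of 1.28 to 1.44 late and 1.19 to 1.63 in the earlier pistils. For the 100 most biased to ovary it was 2.83 to 2.92 against 2.19 to 2.54, and no member is in either list. The part of these shifts in the members' low level was not tested.

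The earlier pistil groups were compared with each other. From 15 to 25 min to 40 to 50 min, 104 of the 110 members had a lower mean, with a median change of -0.43 on the log2 scale, while 49.3% of all tested probe sets had a lower mean. The median change over all tested probe sets was 0.0035. The 3 arrays at 40 to 50 min all lay below the 3 at 15 to 25 min for 28 members (25.5% of them), against 4.23% of tested probe sets, and above them for 0 members. No single member passed the limma test of this step: 0 were called, as were 0 of all 35470 tested probe sets (0%), and 13 members were lower and 0 higher at an unadjusted p under 0.05. Leaving out each array in turn moved the median change between -0.50 and -0.33, with the smallest change when replicate 2 of the 40 to 50 min group was left out.

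No named member passed the test of that step. Cht7 changed by -1.43 (SE 1.33), CML16 by -0.87 (SE 0.58), ACO1 by -0.87 (SE 0.60), EXPA1 by -0.58 (SE 0.48) and LTP by -0.45 (SE 0.33). CCA1 changed by -0.30 (SE 0.65), LIP9 by -0.18 (SE 0.33) and PSAG by -0.16 (SE 0.45), and each of these has an adjusted p of 1. From 40 to 50 min to 5 to 7 h, a contrast the rule used, the members' median change was -2.02 with a range from -1.5 to -4.44.

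**Figure D4:**
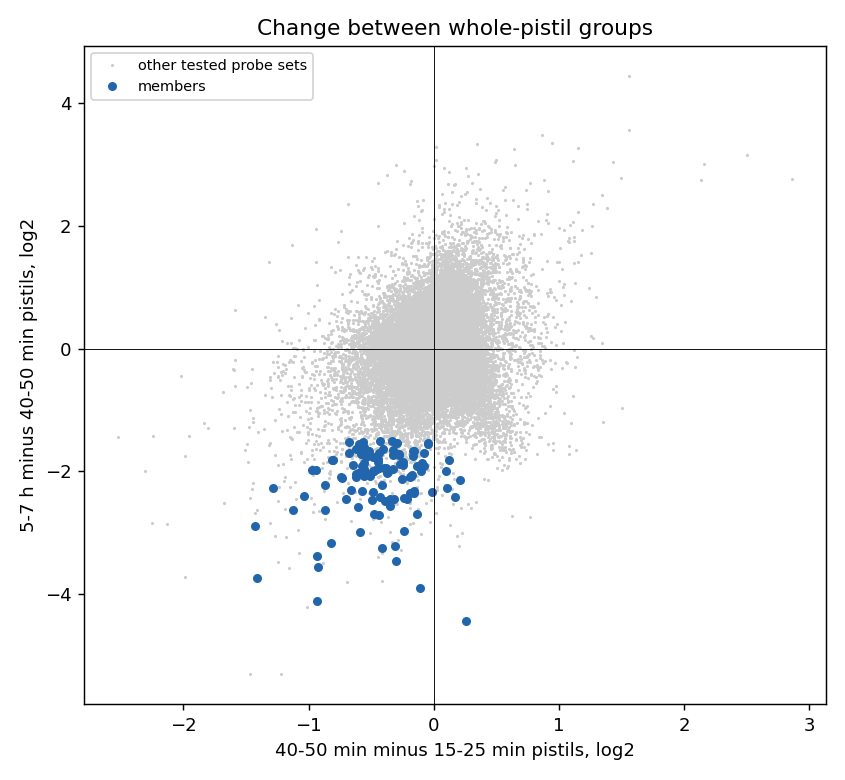
Log2 change of group means from 15-25 min to 40-50 min (horizontal) and from 40-50 min to 5-7 h (vertical) for the 35470 tested probe sets, members in blue. Both axes use the 40 to 50 min arrays. The vertical position of the members follows from the rule, and 104 of the 110 lie left of 0.

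Between ovaries at 5 min and whole pistils at 15 to 25 min the members changed little in their median. The median change was -0.07 against 0.0003 over all tested probe sets, with 49 members above 0 and 61 below. The limma test called 0 members and 0 of all tested probe sets (0%), and at an unadjusted p under 0.05 there were 0 higher and 2 lower members. These groups differ in tissue as well as in time, since the pistils include the stigma.

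Some members were higher and others lower in stigmas at 5 min than in unpollinated stigmas. The labels give no time of day, so pollination and the hour of collection cannot be told apart in this comparison. Against unpollinated stigma 16 members were higher and 8 lower, of 110 tested, which is 14.5% and 7.27% against 8.61% and 13.4% of all tested probe sets. LIP9 rose from 25.8, 16.4 and 13.9 to 51.4 and 40.3, a log2 change of 1.33 (SE 0.37, adjusted p = 0.0147), and the 2 groups did not overlap. PIP2-4 rose from 3.25, 0.454 and 2.99 to 11.5 and 7.34, a change of 2.49 (SE 0.78, adjusted p = 0.0295). The PIP2-4 groups did not overlap either.

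Neither call was robust to the arrays used. Without replicate 1 or 2 of the 5 min stigmas LIP9 had an adjusted p of 0.0927 or 0.0594, and PIP2-4 of 0.144 or 0.1004. Without unpollinated stigma replicate 2 the PIP2-4 change was 1.56 (adjusted p = 0.144), and without both unpollinated arrays that stood apart it had the same size with an adjusted p of 0.0122. Among members without a name, the largest rise was that of LOC4324254, from 5.92, 3.57 and 5.03 to 81.4 and 64.0, a log2 change of 3.93 (SE 0.70, adjusted p = 0.000831). LOC4338149 rose by 3.46 (SE 0.75, adjusted p = 0.00335). Without both unpollinated arrays that stood apart, 13 members were called higher and 14 lower in stigma, which turns the order of rises and falls. The members' median change, 0.24 with all arrays, was 0.01 without them. The stigmas at 5 min also carried the pollen markers EXPB9 and EXPB10 at a sum of 63.5 to 67.9 against 2.80 to 4.93 before pollination, and the part of pollen RNA in these values was not tested.

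The difference between the stigma and the ovary response passed its own test for 3 members, all of them lower in stigma, against 0.476% of all tested probe sets. No member passed it in the other direction, but the share of all tested probe sets in that direction is not given here. Nothing is therefore read from the direction of these calls. None of the 3 has a name.

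In ovaries at 5 min 2 members were higher and 6 lower than in unpollinated ovaries, of 110 tested. That is 1.8% and 5.5% of the members, against 3.87% and 2.02% of all tested probe sets. None of the 16 named genes was among them. The rises were LOC4332506 by 2.09 (SE 0.60, adjusted p = 0.0474) and an unannotated probe set by 2.20 (SE 0.58, adjusted p = 0.0321). The largest falls were LOC4334617 by 1.22 (SE 0.23, adjusted p = 0.00458) and another unannotated probe set by 1.19 (SE 0.18, adjusted p = 0.000976). Without the 2 unpollinated arrays that stood apart there were 0 rises and 3 falls.

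More members were brighter in stigma than in ovary than the reverse. Stigma and ovary arrays also differed in the 3' to 5' ratios and in the share at the floor. The part of this in the comparisons of the 2 tissues was not tested. In unpollinated tissue 28 were higher and 10 lower in stigma, against 19.7% and 13.1% of all tested probe sets. The median difference of the members, 0.14, was below that of all tested probe sets, 0.22. Scaling turned its sign: it was -0.12 after quantile normalization, with 0.03 over all tested probe sets, and -0.17 with arrays centred on their median, with -0.09 over all. D14 was 1.48 higher on the log2 scale (SE 0.20, adjusted p = 2.29e-05), with stigmas at 16.3 to 25.6 and ovaries at 5.94 to 8.67, and the groups did not overlap. WNK3 was 1.80 higher (SE 0.31, adjusted p = 0.000245), again without overlap. HSP17.9A was 1.77 higher (SE 0.51, adjusted p = 0.0128), at 54.1, 11.4 and 92.2 against 13.4, 12.7 and 8.48, where the groups overlapped.

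The HSP17.9A call was lost without unpollinated stigma replicate 1 (1.52, adjusted p = 0.0591), without stigma replicate 3 (1.13, adjusted p = 0.0844) and without ovary replicate 3 (1.56, adjusted p = 0.0536). Without both arrays that stood apart it was 2.44 (adjusted p = 7.33e-05). LTP was 1.02 higher (SE 0.33, adjusted p = 0.0235), a difference that was 0.52 (adjusted p = 0.125) without ovary replicate 2. That call was also lost without stigma replicate 1 or 3, at adjusted p of 0.0731 and 0.102. OsC3H35 ran the other way: its dimmer member probe set was 0.70 lower in stigma (SE 0.25, adjusted p = 0.0359), and leaving out stigma replicate 2 or 3 or ovary replicate 1 or 2 gave adjusted p of 0.0603 to 0.129. The largest difference among members without a name was that of LOC4326082, at 18.2, 6.97 and 7.32 in stigma against 0.469, 0.808 and 1.86 in ovary, or 3.45 on the log2 scale (SE 0.42, adjusted p = 5.51e-06).

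At 5 min after pollination 34 members were higher and 3 lower in stigma than in ovary, against 20.8% and 14.3% of all tested probe sets, with a median difference of 0.65 against 0.24. EXPA1 was 2.36 higher (SE 0.53, adjusted p = 0.00268), at 39.5 and 18.8 in stigma against 4.22 to 5.98 in ovary. LIP9 was 1.88 higher (SE 0.37, adjusted p = 0.000904) and LTP 1.87 higher (SE 0.36, adjusted p = 0.000863). WNK3 was 1.66 higher (SE 0.35, adjusted p = 0.00154) and D14 1.17 higher (SE 0.23, adjusted p = 0.000826). None of these 5 genes overlapped between the tissues. The share of all tested probe sets without such overlap is not given here, so nothing is read from this.

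Both member probe sets of OsC3H35 were lower in stigma at 5 min, by 1.03 (SE 0.27, adjusted p = 0.00823) and 0.73 (SE 0.26, adjusted p = 0.0364). Without replicate 2 of the 5 min stigmas the differences were -0.58 (adjusted p = 0.193) and -0.48 (adjusted p = 0.304). The second was also lost without any 1 of the 5 min ovaries, at adjusted p of 0.0584 to 0.0888. Without replicate 1 of the 5 min stigmas 14 members were higher and 3 lower, and with arrays centred on their median 13 were higher and 6 lower. Centring put the median difference of all tested probe sets at -0.16 in place of 0.24, and the D14 call was then lost (0.77, adjusted p = 0.0823).

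**Figure D5:**
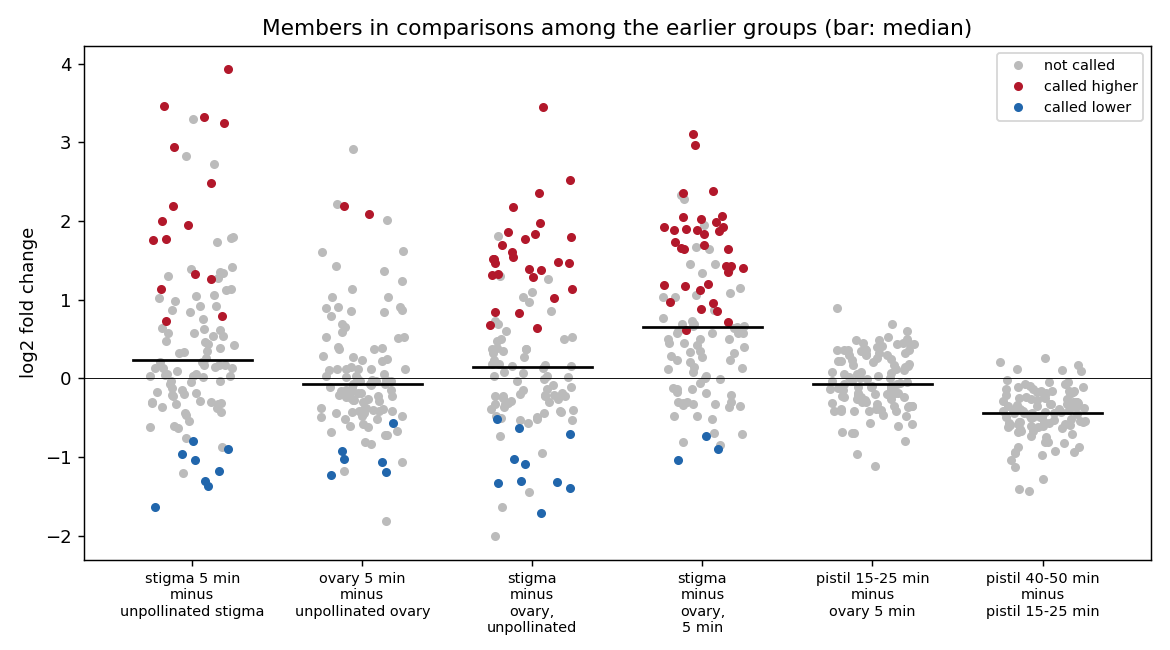
Log2 change of each of the 110 members in the 6 comparisons among groups other than 5 to 7 h, with a bar at the median. Red and blue points passed the limma test as higher or lower. The widest excess of red over blue is in stigma minus ovary at 5 min (34 and 3), and the last comparison has no called point but a median of -0.43.

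Other genes of the members' pathways behaved as follows in these comparisons, counting each gene by its brightest tested probe set and leaving the members out. In stigma at 5 min, of 92 abscisic acid and PP2C genes 26 rose and 8 fell, and of 42 heat shock genes 7 rose and 1 fell, where 8.61% of all tested probe sets rose and 13.4% fell. Of 107 transport genes 29 rose and 7 fell, of 66 wall genes 20 rose and 6 fell, and of 83 calcium genes 27 rose and 12 fell. In ovary at 5 min the rises and falls were 9 and 3, 7 and 1, 18 and 1, 5 and 2, and 12 and 0 for these lists in the same order, against 3.87% and 2.02% of all tested probe sets. At 5 min 45 of the 92 abscisic acid genes were higher in stigma than in ovary and 5 lower. The 18 light and photosynthesis genes other than PSAG went the other way, with 2 higher in stigma and 9 lower. Over all tested probe sets 20.8% were higher and 14.3% lower.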

How the data were processed

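The 20 columns of the deposited table were all matched to samples. It covers 57381 Affymetrix rice probe sets and holds a relative intensity made by the authors. The submitters' processing notes name GCOS 1.3, and no source used here says which step set the 75th percentile of each array to 1. RNA came from a plant mini kit, per the labels.

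A floor of 0.128 (the 20th percentile of all values) was applied before log2, without other normalization, and 187 control probe sets were dropped. Tests covered the 35470 probe sets that exceeded the median of 2 or more arrays, all 110 members among them. One limma model (version 3.58.1, R 4.3.3) held the 7 group means, with variances trended on the mean and 13 residual degrees of freedom. P-values were adjusted by Benjamini-Hochberg over every tested probe set of a comparison, and a call is an adjusted p under 0.05. Errors on log2 changes are standard errors, and errors on intensities are standard deviations. The fit was tested on simulated data. The difference between the stigma and ovary responses at 5 min was added after the data were seen.

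The members, the gene lists and the markers were chosen with earlier results of these data known. Named genes are members with 1 annotated gene that carries a name: the 16 with the largest gap, up to 3 per list, up to 3 rises and 3 falls per comparison, and the probe sets nearest the threshold. Names come from RefSeq (ASM3414082v1) symbols and synonyms, and lists were matched on them. The member probe sets of WNK3, LTP (PAPI) and HSFA2A and the dimmer member probe set of OsC3H35 have the suffix _x. Their values may include other transcripts. Promoter sequences were not analysed here.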

Additional observations from a re-analysis of the deposited data

Results flagged for a closer look

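The response at 5 min differed between stigma and ovary for 3 members in a test of the difference itself (limma interaction term), against 0.476% of all tested probe sets in that direction, and all 3 fell in stigma. For LOC4328132 the stigma change minus the ovary change was -2.20 (SE 0.42, adjusted p = 0.0135). It went from 23.8, 22.9 and 28.9 to 11.6 and 8.94 in stigma and from 6.45, 11.1 and 4.63 to 11.3, 11.03 and 17.1 in ovary. An unannotated probe set, at 14.2, 16.9 and 17.6 before and 6.27 and 4.35 after in stigma, had a difference of -1.75 (SE 0.32, adjusted p = 0.00952). The remaining one, also unannotated, had a difference of -1.14 (SE 0.23, adjusted p = 0.0189). None of the 16 named genes passed this test.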

How the results depend on the processing

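The number of members was 42 with a gap of 2 in place of 1.5, and 77 to 121 under the other planned settings. Leaving out each array in turn gave 100 to 136, and 63 of the 110 members stayed in all 20 of these. In stigma at 5 min the 24 calls became 15 with arrays centred on their median, 8 with array weights and 4 in a fit of the 2 groups alone, and 9 to 30 with 1 array left out. The 9 came without replicate 2 of the 5 min stigmas. In ovary the 8 calls became 3 with centring, 5 with no filter, 24 with array weights and 5 without the 5 to 7 h arrays. With 1 array left out they were 2 to 14: 2 without unpollinated ovary replicate 3 or without 5 min ovary replicate 1 or 3, and 14 without unpollinated stigma replicate 2. Stigma against ovary gave 38 calls unpollinated, 23 in a fit of the 2 groups alone and 31 to 48 with 1 array left out. The split of 28 higher and 10 lower was 24 and 17 after quantile normalization and 18 and 12 with centring. At 5 min the 37 calls became 19 with centring and 17 to 47 with 1 array left out, and the split of 34 and 3 was 24 and 9 after quantile normalization. Both whole-pistil comparisons had 0 member calls in every setting. Leaving out unpollinated stigma replicate 2 and unpollinated ovary replicate 3 together, chosen after seeing the data, gave 147 members (109 of the 110 among them) and 3 calls in ovary. Same-numbered arrays deviated together little in the median (correlation 0.048, range -0.26 to 0.43, 22 of 57 pairs over 0.1). For arrays of other numbers the median was -0.043 (range -0.47 to 0.39). These values cannot settle whether some same-numbered arrays share a batch, and the labels give them only a number. With the replicate block the calls were 24, 9, 41 and 42 in the first 4 comparisons and 0 in both pistil comparisons. The causes of these changes were not tested. Of the named genes' calls, 14 in number, 0 reversed direction under any setting. Probe sets near the floor have only a bound on their change.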
